A study of Arabidopsis thaliana with 18 samples.

Results

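The ABA and cold effector genes are 9 Arabidopsis genes that were chosen by name, RD29A (AT5G52310), RD29B (AT5G52300), RAB18 (AT5G66400), COR15A (AT2G42540), COR47 (AT1G20440), ERD10 (AT1G20450), KIN1 (AT5G15960), KIN2 (AT5G15970) and RD22 (AT5G25610), of 20829 nuclear genes that had values in at least 1 of the tables used. All 9 had values in at least 1 table. The tables of 3' end pausing listed 3 of them in Col-0, 5 in xrn3, and 4 each in DMSO and herboxidiene, and RD29A, COR47 and ERD10 were in none. Counts at splice sites were given for 8 of the 9 in each RNA dataset, without KIN1 in the chromatin RNA and without RD29B in the total RNA.

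Abscisic acid (ABA) is the hormone that plants make when water is short. It is sensed by PYR/PYL receptors, which inhibit phosphatases and so free SnRK2 kinases to activate bZIP transcription factors, and these bind ABA-responsive elements (ABREs) with the core ACGTG. Cold acts mainly through the CBF factors, which bind the C-repeat or dehydration-responsive element (DRE) with the core CCGAC. The effector genes lie downstream of ABA, of cold or of both. RAB18, COR47 and ERD10 encode dehydrins, hydrophilic proteins that protect membranes and other proteins. COR15A encodes a chloroplast-targeted protein that protects membranes on freezing. KIN1 and KIN2 encode small hydrophilic proteins, RD29A and RD29B larger hydrophilic proteins, and RD22 a BURP-domain protein induced through the MYC2 and MYB2 factors.

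Seedlings were 14 days old in every group. Native elongating transcripts of plants were sequenced from their 3' ends (pNET-seq), which places the Pol II that holds them, here the form phosphorylated at serine 2 (Ser2P), in untreated Col-0 (the wild type), in untreated xrn3 (the xrn3-3 T-DNA allele of the nuclear exonuclease XRN3, described by the study as weak), and in Col-0 immersed in buffer under vacuum and kept for an hour with herboxidiene, an inhibitor of splicing, or with DMSO, its solvent. RNA bound to chromatin (CB-RNA-seq) was sequenced for Col-0 and xrn3, and total RNA for the DMSO and herboxidiene seedlings. Each condition had 2 libraries of pNET-seq or CB-RNA-seq, or 3 of total RNA, which were pooled in the deposited values. No value per library was therefore used, no SD could be given, and every test below compares pooled libraries and not the conditions.

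Gene body reads over all listed genes came to 12224996 for Col-0, 25790239 for xrn3, 3874349 for DMSO and 3671597 for herboxidiene, and exonic reads at splice sites to between 15070145 and 29395030 per RNA dataset. The XRN3 gene had 302 gene body reads (8.01 TPM) in the wild type and more in the mutant, with 9931 (52.2 TPM). The label cannot be checked from these reads, because reads over the gene of an insertion allele do not measure its function. Every direction for xrn3 below is that of the libraries labelled xrn3. A gene enters a pausing table only if its TPM was at least 1 and its 3' end peak passed the authors' test. TPM is the reads per kb scaled to a fixed sum. The authors counted it over the gene and 500 bp downstream of its 3' end, so it also holds reads past the gene body. An unlisted gene has no pNET-seq level here. Of the shoot markers RBCS1A, LHCA1, LHCB1.1 and RCA were listed in all conditions, and the seed markers CRA1, CRC and OLEO1 in none.

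Of the 9 genes, 6 formed tandem pairs. KIN1 (chromosome 5, 5209898 to 5210727 in the deposited TAIR10 coordinates, plus strand) and KIN2 (5211911 to 5212665) lay 892 bp apart in the RefSeq annotation, and their coding sequences of 201 nt were 95.02% identical. Only uniquely mapped reads were kept, so reads of the stretches they share could not be assigned, and their single values are uncertain. RD29B (chromosome 5, 21237056 to 21239529) and RD29A (RefSeq, 21240717 to 21243644), both on the plus strand, lay 1185 bp apart with 60.1% identity, and COR47 (RefSeq, chromosome 1, 7084409 to 7086873) and ERD10 (RefSeq, 7087903 to 7089606), both on the minus strand, 1029 bp apart with 73.8% identity. COR15A (chromosome 2, 17711032 to 17712330), RAB18 (chromosome 5, 26518277 to 26519242) and RD22 (chromosome 5, 8914233 to 8916800), on the minus strand, had no neighbour among the 9. COR15A lies beside its paralog COR15B (AT2G42530), 7 bp away in the RefSeq annotation and with 82.6% identity of the coding sequences, so that reads of stretches they share could not be assigned either.

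The promoter windows scanned differed in the 2 elements of these routes. In the 250 bp before the RefSeq start, CCGAC was found on either strand at 3 of the 9 genes (RD29A, RD29B and COR15A) and ACGTG at 6 (RD29B, RAB18, COR15A, KIN1, KIN2 and RD22), whereas 12.0% and 22.9% of 27443 protein-coding promoters held them. COR47 and ERD10 had neither in this window. The RefSeq start lay upstream of the deposited one at KIN1 (5209717 against 5209898), KIN2 (5211719 against 5211911), RAB18 (26519447 against 26519242), RD22 and RD29B. At these genes the stretch between both starts was not scanned. The RAB18 window overlaps the annotated neighbour AT5G66410. RD29A had 3 CCGAC motifs, RAB18 had 3 ACGTG motifs and RD29B had 4 ACGTG motifs and 1 CCGAC. The promoters below are those of the genes with the highest transcription, COR15A, KIN1 and KIN2, of RD22, whose transcription differed most with herboxidiene, and of RD29A. They read 5' to 3' along the gene and end at the base before its RefSeq start (TAIR10.1, nuclear sequence of TAIR10), with both motifs and their reverse complements GTCGG and CACGT in capitals. In COR15A the 2 ACGTG matches overlap as 1 palindrome. A match is a run of letters and not evidence of binding.
COR15A, chr2:17712331-17712580, strand -: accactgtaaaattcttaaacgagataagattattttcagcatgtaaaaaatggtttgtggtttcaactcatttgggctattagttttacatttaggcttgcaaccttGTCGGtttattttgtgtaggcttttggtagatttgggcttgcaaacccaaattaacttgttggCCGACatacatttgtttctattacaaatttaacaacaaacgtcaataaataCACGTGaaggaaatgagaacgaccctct
KIN1, chr5:5209467-5209716, strand +: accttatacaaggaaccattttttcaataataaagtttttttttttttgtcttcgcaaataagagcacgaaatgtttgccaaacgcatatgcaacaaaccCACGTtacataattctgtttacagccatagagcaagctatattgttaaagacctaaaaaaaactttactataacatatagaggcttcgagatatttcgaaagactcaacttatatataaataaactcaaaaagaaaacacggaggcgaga
KIN2, chr5:5211469-5211718, strand +: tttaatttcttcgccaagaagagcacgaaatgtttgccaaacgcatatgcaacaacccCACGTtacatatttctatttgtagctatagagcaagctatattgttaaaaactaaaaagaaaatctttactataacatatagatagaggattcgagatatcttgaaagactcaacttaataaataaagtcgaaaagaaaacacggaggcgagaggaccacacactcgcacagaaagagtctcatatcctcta
RD22, chr5:8916857-8917106, strand -: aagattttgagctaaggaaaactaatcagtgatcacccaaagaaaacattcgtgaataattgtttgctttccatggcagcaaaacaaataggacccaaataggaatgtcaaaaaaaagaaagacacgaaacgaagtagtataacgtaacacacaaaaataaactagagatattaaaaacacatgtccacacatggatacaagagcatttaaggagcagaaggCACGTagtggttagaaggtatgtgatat
RD29A, chr5:21240467-21240716, strand +: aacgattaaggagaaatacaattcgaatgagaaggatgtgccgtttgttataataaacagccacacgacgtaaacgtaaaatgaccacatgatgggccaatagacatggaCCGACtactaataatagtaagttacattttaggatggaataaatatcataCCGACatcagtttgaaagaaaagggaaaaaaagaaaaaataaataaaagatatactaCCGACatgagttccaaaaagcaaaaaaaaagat

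In untreated Col-0 only RAB18, COR15A and RD22 were listed, and transcription of COR15A and RD22 was low. After immersion COR15A, KIN1 and KIN2 were high in both conditions, and RD22 in DMSO only. KIN1 and KIN2 had no Col-0 level in pNET-seq to compare with. RD29A, RD29B, RAB18, COR47 and ERD10 had no pNET-seq level after immersion, because they were not listed there. All of these but RD29B had reads in total RNA after immersion, for example 18981 exonic reads of RD29A and 302 of RAB18 in DMSO. COR15A had 7.35 TPM in Col-0, 24.3 in xrn3, 705 in DMSO and 865 in herboxidiene. Its gene body reads were 102, 797, 4369 and 4888 in the same order. Both immersed conditions thus lay far above both untreated ones. KIN2 was not listed in Col-0 and had 137 TPM in xrn3, 3063 in DMSO and 3893 in herboxidiene, with 2184, 8200 and 10581 gene body reads. It had the highest TPM of all 14999 genes listed in DMSO and of all 12663 in herboxidiene. Its paralog KIN1 was listed only after immersion, with 1466 TPM in DMSO and 1857 in herboxidiene, 21st and 22nd in the order of all listed genes.

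RD22 behaved differently. It had 7.59 TPM in Col-0, 13.9 in xrn3, 98.7 in DMSO and 7.08 in herboxidiene, with 250, 1027, 1463 and 92 gene body reads. DMSO was the only condition in which it was high. RAB18 was listed only in the untreated seedlings, with 74.4 TPM in Col-0 and 111 in xrn3, and was there more highly transcribed than 90.0% and 93.6% of the listed genes. RD29B was listed only in xrn3, with 10.98 TPM. The order of levels in Col-0 was RAB18, RD22 and COR15A, in xrn3 KIN2, RAB18, COR15A, RD22 and RD29B, and in DMSO and herboxidiene KIN2, KIN1, COR15A and RD22. RD22 and COR15A in Col-0 were near each other, and whether such neighbours differ beyond the spread of libraries could not be told from pooled values.

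**Figure D1:**
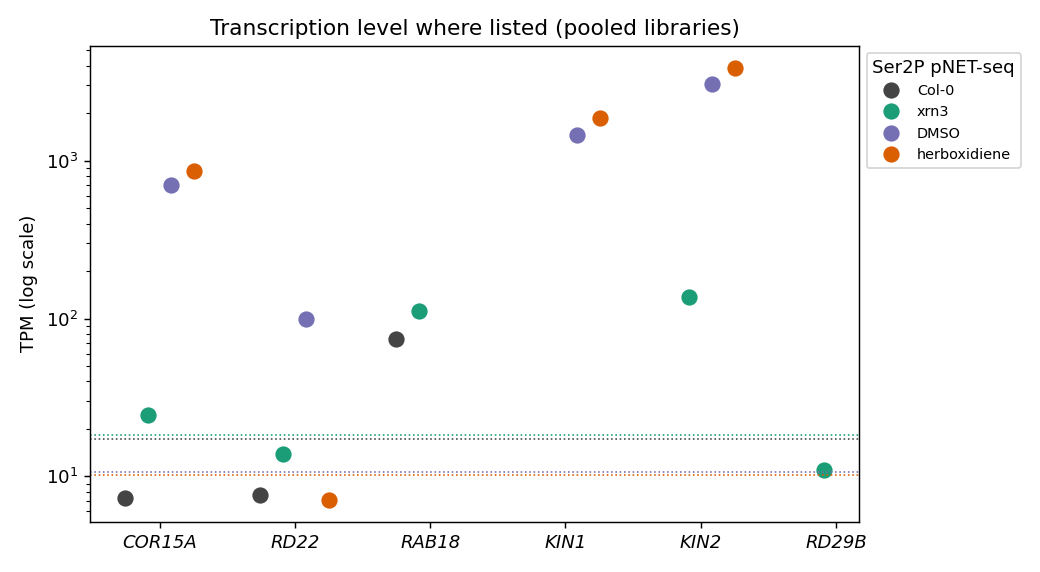
TPM in Ser2P pNET-seq (log axis) of the 6 effector genes that were listed, 1 point per pooled condition, with no point where a gene was not listed and a dotted line at the median TPM of all genes listed in each condition. COR15A, KIN1 and KIN2 lie between 705 and 3893 TPM after immersion, and RD22 is at 98.7 TPM in DMSO and 7.08 TPM in herboxidiene.

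After immersion in DMSO, COR15A transcription was 118 times that of untreated Col-0 (95% exact binomial interval 97.3 to 145, counting error only, as for all such intervals) and RD22 transcription 16.2 times (14.1 to 18.6). The ratios compare gene body reads after each condition was scaled by its sum over the genes listed in both, and a level was called at 2-fold or more, with no test. COR15A ranked 12th and RD22 112th from the highest of 14429 genes. Both of the 2 genes listed in both conditions were called, against a background of 37.3% of all genes, of which 10.3% were higher and 27.0% lower. The median of all genes was lower by 0.41 on the log2 scale, and relative to that median COR15A was 157-fold and RD22 21.5-fold higher. By the deposited TPM, COR15A was 95.9 times and RD22 13.0 times its Col-0 level, both below the intervals given above. The 4 shoot markers and the 3 root markers listed in both were all at least 2-fold lower, with RBCS1A at 1184 and 499 TPM and LHCA1 at 1528 and 242 TPM. The part of these markers in the result was not tested. The solvent, the immersion and any difference in the preparation of these libraries, which the labels do not give, cannot be told apart. Nor can fewer cells of a type and less RNA per cell in any of these bulk samples.

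With herboxidiene, transcription of COR15A, KIN1 and KIN2 lay within 2-fold of DMSO, and that of RD22 was 17.3-fold lower (interval 14.0 to 21.7). RD22 went from 1463 to 92 gene body reads and was 4th from the lowest of 11590 genes. COR15A was 1.03 times (0.985 to 1.07), KIN1 1.17 times (1.13 to 1.22) and KIN2 1.18 times (1.15 to 1.22) its DMSO level. Of the 4 genes, 1 was thus past 2-fold, against 15.8% of all genes, of which 5.84% were higher and 9.96% lower. RD22 was the member with the lowest level in DMSO, and it was still 16.2-fold lower when scaled to the median gene and 13.9-fold lower by the deposited TPM. DMSO serves as the second condition here and as the first in the comparison with untreated Col-0, so that these 2 comparisons share its libraries. The shoot markers were also lower with herboxidiene, RCA 2.42-fold and RBCS1A, LHCB1.1 and LHCA1 between 1.42-fold and 1.51-fold, as was the root marker SCR, at 1.51-fold. The root markers PYK10 (517 TPM) and PIN2 (1.85 TPM) were listed in DMSO and not in herboxidiene. The part of these markers in the result was not tested.

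In the libraries labelled xrn3, COR15A transcription was 3.91 times that of Col-0 (3.17 to 4.85), with 797 against 102 gene body reads, which ranked it 118th from the highest of 17714 genes. RD22 was 2.05 times (1.79 to 2.37) and RAB18 1.46 times (1.36 to 1.57). COR15A and RD22 were therefore called, against 5.05% of all genes, of which 4.05% were higher and 0.999% lower. By the deposited TPM, RD22 was 1.84 times and no longer past 2-fold, while COR15A was 3.31 times. Of the 5 shoot markers RCA was 2.37 times its Col-0 level and the other 4 lay between 0.830 and 1.07 times, and the 3 root markers listed lay between 0.740 and 0.933 times. Their part in the result was not tested. KIN2 and RD29B were listed in xrn3 and not in Col-0, and no ratio can be given for them. The comparison shares the Col-0 libraries with that of DMSO.

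**Figure D2:**
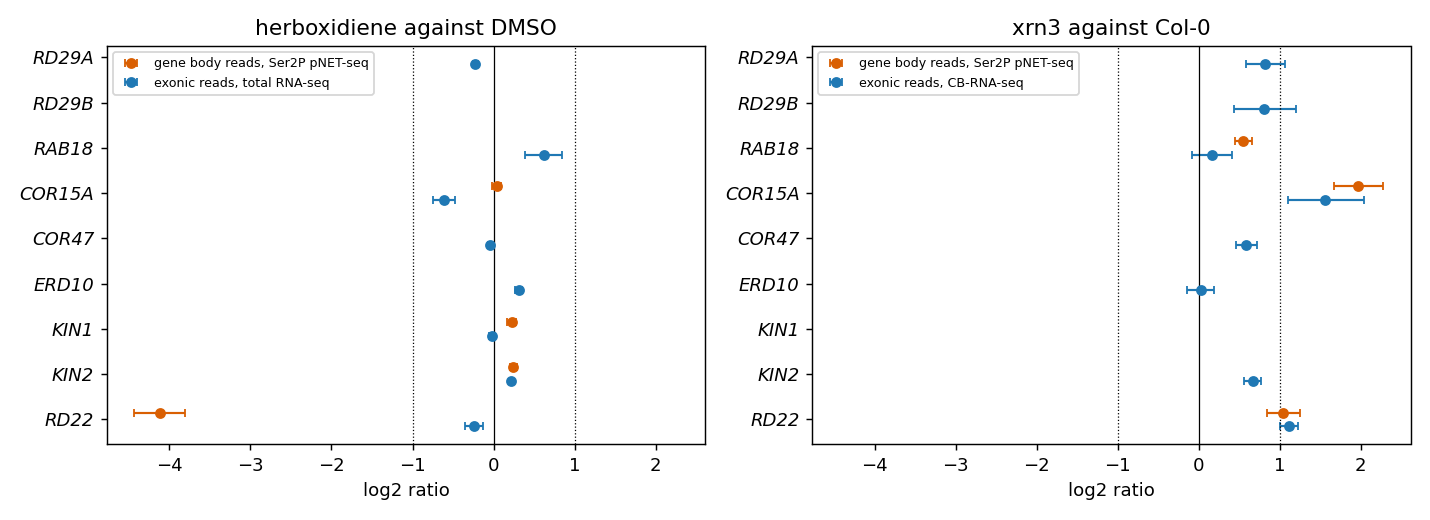
Log2 ratio of gene body reads in Ser2P pNET-seq (orange) and of exonic reads at splice sites (blue) for herboxidiene against DMSO (left) and xrn3 against Col-0 (right), with 95% exact intervals of counting error and dotted lines at 2-fold. For RD22 after herboxidiene the pNET-seq point is at -4.12 and the total RNA point at -0.24.

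In total RNA the levels of the effector genes stayed within 2-fold after herboxidiene, RD22 included. Exonic reads at splice sites, summed per gene and scaled to the total over shared genes, gave 0.847 times the DMSO level for RD22 (0.786 to 0.914), from 1766 and 1133 reads. COR15A was at 0.654 times (0.595 to 0.718) and RAB18 at 1.54 times (1.31 to 1.80), the lowest and the highest of the 8 genes. None of the 8 was past 2-fold, against 4.85% of all 9659 genes, 1.53% higher and 3.31% lower. In CB-RNA, COR15A was at 2.94 times Col-0 in xrn3 (2.14 to 4.11) from 52 and 162 reads, and RD22 at 2.16 times (2.00 to 2.33) from 992 and 2268 reads. The other 6 genes lay between 1.02 times for ERD10 and 1.77 times for RD29A. Hence 2 of 8 were past 2-fold, against 2.33% of all 15089 genes, 1.33% higher and 1.01% lower. All 8 ratios were above 1, whereas 48.9% of all genes were, but the intervals of ERD10 (0.903 to 1.14) and RAB18 (0.947 to 1.33) included 1.

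The 3' end pause index (3'PI) is the read density of the highest 50-bp window around the polyadenylation site (PAS) over the density of the gene body. It was low at the effector genes in every condition. The median of all listed genes was 15.9 in Col-0, 15.5 in xrn3, 10.6 in DMSO and 7.37 in herboxidiene, and all 16 listed values of the effector genes lay below the median of their condition, between 1.46 and 4.44. They also lay below the median of genes with the same number of listed introns, which was 7.77 for the 1-intron genes in Col-0. Low values were not particular to the effector genes. In Col-0 the shoot markers RBCS1A, LHCB1.1 and LHCA1 had 2.79, 1.72 and 2.07, whereas RCA had 7.38. Of other pathway genes HIS1-3 had 1.40 and COR413IM1 11.8. The 3'PI of COR15A was 4.11 in Col-0, 3.51 in xrn3, 2.50 in DMSO and 2.76 in herboxidiene, with its peak in the same window each time, centred 29.5 bp past the deposited PAS and inside the longest RefSeq isoform, which reaches 17710441. RD22 had 3.99, 3.40, 1.83 and 4.44, the last from 9 peak reads, with peaks centred at -105.5 to -95.5 bp from the PAS. RAB18 had 1.77 in Col-0 and 2.37 in xrn3, KIN1 1.90 in DMSO and 1.76 in herboxidiene, and RD29B 1.60 in xrn3.

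For KIN2 the 3'PI was 1.64 in xrn3, 1.65 in DMSO and 1.46 in herboxidiene, the lowest of all these values. Its peak window lay 205.5, 240.5 and 210.5 bp past the deposited PAS, beyond the RefSeq end of the gene by at least 103 bp. The windows together spanned the 85 bp below on the plus strand, of which the 15 bp common to all 3 are in capitals.
KIN2 peak windows, chr5:5212846-5212930: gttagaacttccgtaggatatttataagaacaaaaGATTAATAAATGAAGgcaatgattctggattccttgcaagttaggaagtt

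In xrn3 the 3'PI of RAB18 rose 1.34-fold over Col-0 (exact interval 1.08 to 1.66, adjusted p = 0.0399 in Fisher's exact test, two-sided, with Benjamini-Hochberg over 17714 genes), with 508 and 130 peak reads. COR15A was at 0.854 times (0.509 to 1.49, adjusted p = 0.749 in the same exact test) and RD22 at 0.852 times (0.513 to 1.47, adjusted p = 0.754). The call of 1 of 3 genes stands against 14.9% of all genes, of which 11.3% were higher and 3.66% lower.

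With herboxidiene the 3'PI of KIN2 fell to 0.885 of DMSO (0.817 to 0.951, adjusted p = 0.00922 in the same exact test over 11590 genes), with the window shifted by 30 bp. In the same exact test COR15A was at 1.104 times (0.978 to 1.25, adjusted p = 0.313), KIN1 at 0.926 times (0.842 to 1.03, adjusted p = 0.419) and RD22 at 2.43 times (1.02 to 5.12, adjusted p = 0.136). The call of 1 of 4 stands against 17.9% of all genes, of which 16.6% were lower and 1.31% higher. Between untreated Col-0 and DMSO, the 3'PI of RD22 fell to 0.459 (0.271 to 0.801, adjusted p = 0.0128 in the exact test) and that of COR15A was at 0.608 (0.373 to 1.03, adjusted p = 0.0953), where 39.5% of all 14429 genes were called, 37.0% lower and 2.47% higher.

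**Figure D3:**
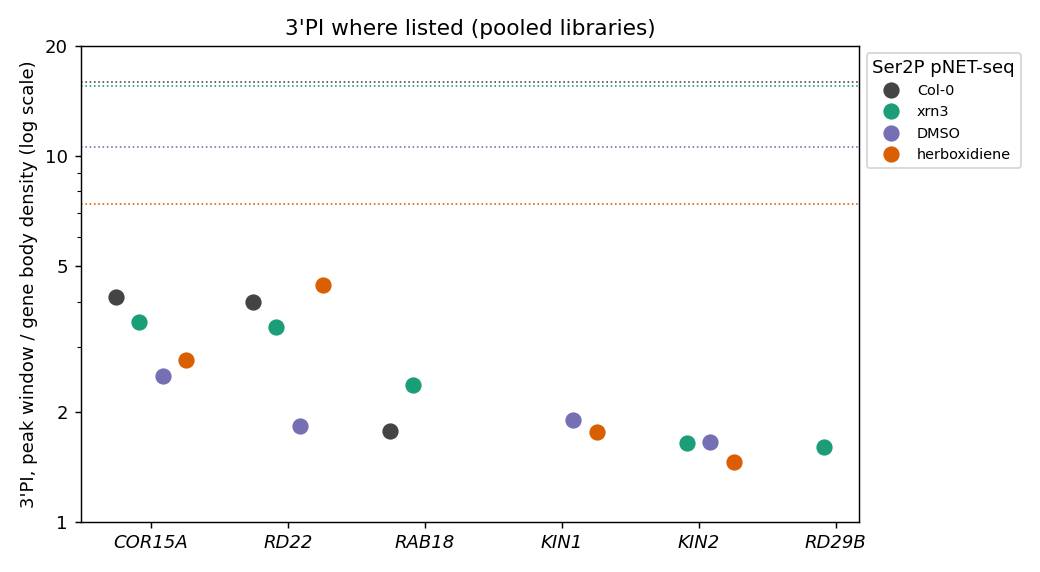
3'PI (log axis) of the 6 listed effector genes, 1 point per pooled condition, with a dotted line at the median 3'PI of all genes listed in each condition (15.9 for Col-0, 15.5 for xrn3, 10.6 for DMSO and 7.37 for herboxidiene). Every point lies between 1.46 and 4.44, under the line of its own condition.

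Splicing was read from the intronic and exonic reads at the 5' and 3' splice sites, summed per intron, and a higher ratio stands for less complete splicing. The 9 genes have 18 listed introns, all of which start with GT and end with AG in the genome used here, as did 98.8% of all 121209. Those below, the last 60 bases with the final AG in capitals, show the 3 introns of RD22, 1 of which was not called with herboxidiene, beside the intron with the highest ratio (KIN1 intron 2), the one with the largest fold (COR47) and the one with the smallest rise (RAB18). Over the 20 bases that end 4 bases before the exon, 75% were C or T in RD22 intron 2, 80% in RD22 intron 1, 55% in RD22 intron 3 and 50% in each of the others.
RD22 intron 1, chr5:8916547-8916606, strand -: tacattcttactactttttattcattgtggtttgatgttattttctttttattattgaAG
RD22 intron 2, chr5:8916079-8916138, strand -: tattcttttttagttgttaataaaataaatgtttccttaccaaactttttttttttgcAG
RD22 intron 3, chr5:8914825-8914884, strand -: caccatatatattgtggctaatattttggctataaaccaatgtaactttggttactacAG
KIN1 intron 2, chr5:5210339-5210398, strand +: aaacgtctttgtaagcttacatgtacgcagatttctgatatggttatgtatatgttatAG
COR47 intron 1, chr1:7085181-7085240, strand -: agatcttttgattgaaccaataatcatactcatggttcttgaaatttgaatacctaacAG
RAB18 intron 1, chr5:26518721-26518780, strand -: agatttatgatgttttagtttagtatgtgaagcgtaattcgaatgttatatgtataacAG

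The 5' ends of the same RD22 introns, with GT in capitals, were as follows.
RD22 intron 1, chr5:8916620-8916639, strand -: GTacttataaactcaaaacg
RD22 intron 2, chr5:8916427-8916446, strand -: GTtaaaatattttactttgc
RD22 intron 3, chr5:8915352-8915371, strand -: GTaaaaatactaactactgt

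After herboxidiene, introns of all 8 measured effector genes held more intronic reads in total RNA. COR47, with 195 intronic and 21075 exonic reads in DMSO and 6701 and 15541 in herboxidiene, went from a ratio of 0.00925 to 0.431, a rise of 46.6-fold (40.3 to 54.1). Its neighbour ERD10 went from 0.0115 to 0.361, or 31.4-fold (25.8 to 38.5). KIN1 reached 0.567 at intron 1 and 0.897 at intron 2 from 0.0272 and 0.0334, and KIN2 reached 0.765 and 0.746 from 0.0355 and 0.0239. In KIN1 intron 2 there was thus nearly 1 intronic read for each exonic read counted. Exonic reads of the stretches that KIN1 and KIN2 share could not be assigned, so the ratios of both genes are uncertain. COR15A rose from 0.0525 to 0.678, 12.9-fold (9.84 to 17.1, adjusted p = 1.49e-110 by Fisher's exact test over 57033 introns). The 3 introns of RD29A rose from 0.0261, 0.0400 and 0.0290 to 0.664, 0.492 and 0.580.

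RAB18 and RD22 stood lower. RAB18 rose from 0.0497 to 0.1595, 3.21-fold (1.75 to 6.24, adjusted p = 0.000120 in the same exact test), from 15 and 56 intronic reads. By the same exact test, RD22 intron 1 rose from 0.0147 to 0.186 (adjusted p = 1.20e-10), from 5 and 41 intronic reads, and intron 3 from 0.00305 to 0.0435 (adjusted p = 6.29e-08), from 3 and 26. RD22 intron 2 was at 0.140 in DMSO and 0.108 in herboxidiene, a factor of 0.769 (0.479 to 1.22, adjusted p = 0.352 in the exact test), and was the only one of the 14 introns not called. It already had the highest DMSO ratio of the 14. The 13 of 14 introns called higher stand against 57.2% of all introns, with 3.04% called lower, and the median change of the 14 was 4.35 on the log2 scale beside 1.75 for all introns. Summed per gene, all 8 were called higher, against 85.5% of all genes with 1.19% lower, and with a median of 4.39 beside 1.92 on the log2 scale. Calls depend on read depth, and its part in these shares was not tested. The range was 2.25-fold for RD22 to 46.6-fold for COR47. At the 5' splice site alone, RAB18 and RD22 intron 3 were no longer called.

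**Figure D4:**
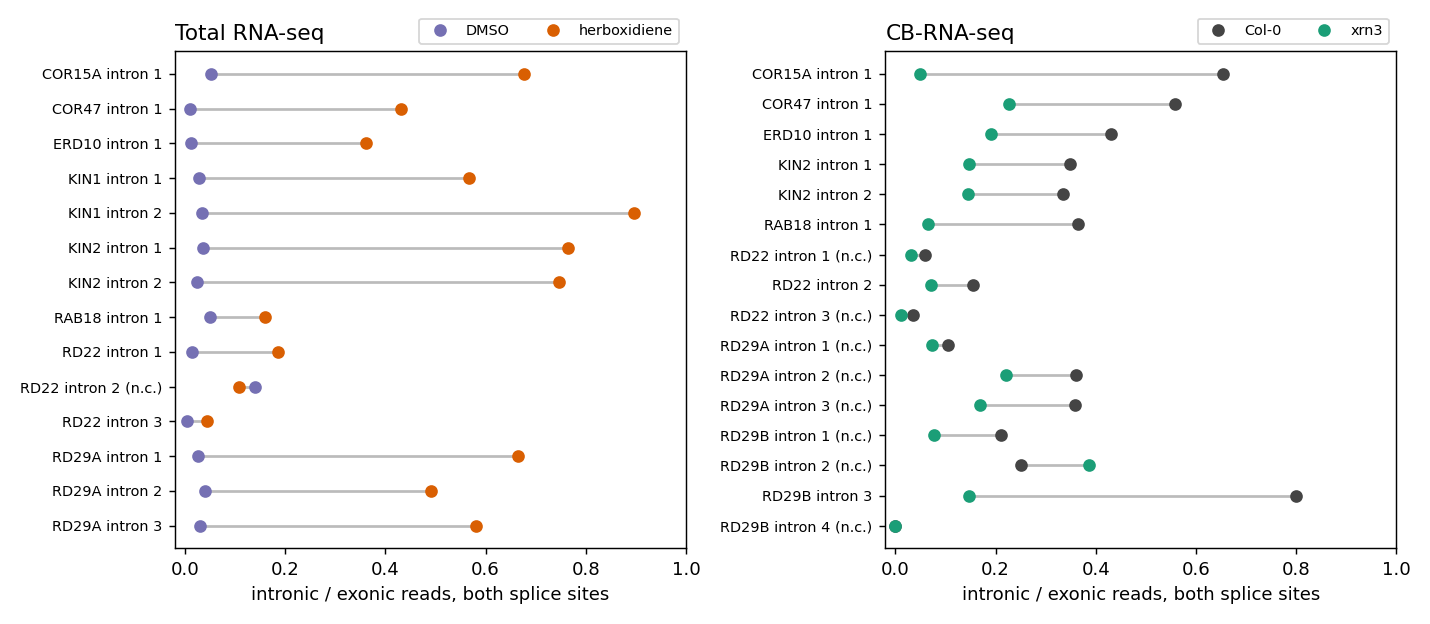
Ratio of intronic to exonic reads, summed over both splice sites, at each tested intron of the effector genes in total RNA-seq (left, DMSO and herboxidiene) and CB-RNA-seq (right, Col-0 and xrn3); n.c. marks introns not called by Fisher's exact test. In the left panel herboxidiene lies right of DMSO at every intron but RD22 intron 2, and in the right panel xrn3 lies left of Col-0 at 14 of 16 introns.

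On chromatin, the intron ratios of these genes were mostly lower in xrn3 than in Col-0. COR15A fell from 0.654 in Col-0 (34 intronic and 52 exonic reads) to 0.0494 in xrn3 (8 and 162), 13.2-fold lower (5.51 to 34.8, adjusted p = 8.28e-10 by Fisher's exact test over 94483 introns). RAB18 fell from 0.364 to 0.0654, 5.57-fold lower (3.30 to 9.79, adjusted p = 3.12e-11 in the same exact test). COR47 fell from 0.559 to 0.226, ERD10 from 0.431 to 0.190, and the KIN2 introns from 0.348 and 0.334 to 0.146 and 0.145. These last 4 were 2.27-fold to 2.47-fold lower.

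RD22 intron 2 fell from 0.155 to 0.0702, and RD29B intron 3 from 0.800 to 0.147, the latter from only 16 and 5 intronic reads. The other 8 introns, all 3 of RD29A, introns 1, 2 and 4 of RD29B and introns 1 and 3 of RD22, were not called. RD29B intron 2 was at 0.250 and 0.387, from 5 and 24 intronic reads (adjusted p = 0.795 in the exact test), and RD29B intron 4 had no intronic read among 12 and 7 exonic reads. So 8 of 16 introns were called lower, against 19.8% of all introns, with 1.92% called higher. Without RD29B intron 4, which has no log2 ratio, the median change was -1.20 on the log2 scale beside -0.36 for all introns. Summed per gene, 7 of 8 were called lower, against 50.3% of all genes with 1.27% higher, RD29B being the exception at 0.322 and 0.204 (adjusted p = 0.179 in the exact test). Of all genes, 99.9% had a higher ratio of xrn3 to Col-0 than COR15A. At the 5' splice site alone, RD22 intron 2, RD29B intron 3 and the summed RD22 and RD29A were no longer called. RD29B intron 3 was not called at the 3' splice site alone or at a threshold of 0.01 either.

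Another 54 genes of the pathway, in 5 lists, were followed in the same way. In xrn3, 5 of the 38 listed in both conditions were at least 2-fold higher and none lower, against 4.05% and 0.999% of all genes. Where each condition held 20 or more gene body reads, the minimum for the genes ranked here, the largest ratios were those of RD20, a calcium-binding lipid droplet protein, at 2.52 times and CYP707A2, an ABA 8'-hydroxylase, at 2.47 times, and the smallest those of COR28 (0.646) and CAMTA3 (0.698), a calmodulin-binding transcription factor. With herboxidiene, 1 of 20 was higher and 2 lower, against 5.84% and 9.96% of all genes. At or above the read minimum, the kinases SnRK2.3 (2.05 times) and SnRK2.2 (1.73 times) were highest and the receptors PYL6 (3.92-fold lower) and PYL8 (1.71-fold lower) lowest. The second gene past 2-fold lower was ABA2, under the minimum with 16 and 36 reads, as was PYL2 among the 5 higher in xrn3, with 37 and 5 reads. In DMSO, 7 of 25 were higher and 3 lower than in untreated Col-0, against 10.3% and 27.0% of all genes. COR413IM1, a cold-regulated chloroplast membrane protein, was 9.58 times and CYP707A1 3.45 times its Col-0 level, whereas HIS1-3, a drought-induced linker histone, was 15.6-fold lower and ABA2, an enzyme of ABA synthesis, 3.91-fold lower. By list, 3 of 5 genes of ABA synthesis and breakdown were higher in DMSO and 1 lower, and of the other effectors 1 of 5 was higher and 2 lower. Of the 4 receptors, the 8 kinases and bZIP factors and the 3 cold and drought regulators, 1 each was higher and none lower. The 3'PI was called lower at 16 of these 25 genes and higher at none, against 37.0% and 2.47% of all genes. With herboxidiene it was called lower at 7 of 20 and higher at none, against 16.6% and 1.31%.

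The shares of pathway genes called for splicing were near those of all genes. With herboxidiene 32 of 35 tested were called higher and none lower, against 85.5% and 1.19% of all genes, with a median of 2.36 on the log2 scale beside 1.92 for all genes. In xrn3 17 of 32 were called lower and none higher, against 50.3% and 1.27%, with a median of -0.35 beside -0.37. Of the list of other effectors, 12 of 14 were higher with herboxidiene and 7 of 10 lower in xrn3, and of the receptors 3 of 3 and 1 of 3.

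COR15A and RD22 were the 2 effector genes listed in all 4 pausing tables. Among the 11355 genes listed in all 4, the 3 whose gene body reads over the 4 conditions, as log2 reads per kb around each gene's mean, lay nearest to the median profile of the pair were AT5G63290 (Euclidean distance 0.0471), AT1G56670 (0.553) and AT2G40200 (0.664). AT5G63290 had 9.57 TPM in Col-0, 15.4 in xrn3, 96.5 in DMSO and 28.7 in herboxidiene. This median profile joins 2 genes that differ in herboxidiene, and it is a description of 4 pooled values.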

How the data were processed

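The deposited counts of reads in gene bodies, in peak windows and at splice sites are whole numbers without normalisation, 1 pooled value per condition. For pNET-seq, the authors mapped reads to TAIR10 with HISAT2 2.2.0, kept unique reads and removed PCR duplicates. The deposited TPM and the 3'PI, a ratio, are the authors' values, and the q-value in their tables is that of the authors' own test of each peak, which listed genes had passed. For RNA, the authors used Trimmomatic 0.39, and of the deposited splice-site values the exonic and intronic counts were used here, not the ratios. Samples were grouped by genotype and treatment as labelled.

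Counts of the pooled libraries were compared by two-sided Fisher's exact tests with Benjamini-Hochberg adjustment over all nuclear genes or introns (threshold 0.05), and levels by a 2-fold rule, using Python 3.11.15, numpy 2.4.6, scipy 1.17.1, pandas 2.3.3 and Biopython 1.88. The tests were tested on simulated data. They recovered 91.5% to 100% of 2-fold changes at features with at least 100 reads expected in the upper count of the ratio. False calls made up 1.55% to 6.37% of all calls there, and up to 8.70% when features were drawn at any depth. At features drawn at any depth they recovered 9.5% to 84%, depending on the comparison. A feature not called may therefore still differ, and the share of features called depends on depth. Replicate variation does not enter them. Precision follows the counts given, and intervals cover counting error only. Sequences come from the RefSeq TAIR10.1 genome. The genes, the pathway lists and the tests were chosen with earlier results of these data known. Named genes were the 9 effectors, XRN3, the 3 nearest profiles, and at most 2 rises and 2 falls per comparison among pathway genes with at least 20 gene body reads. Alternatives were other thresholds, folds, scalings, minimum reads and single splice sites. A Col-0 intron table whose assay is not named was left out, with 2 value columns.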

Additional observations from a re-analysis of the deposited data

How the results depend on the processing

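No paired analysis was possible because each table holds 1 pooled value per condition and no column carries a replicate, and for the same reason no library was left out in turn. Of 50 counts of effector genes or introns called under alternatives, 42 stayed within 1.5 times the count reported and 8 moved, and of 50 counts over all features 35 stayed. Of 343 single log2 ratios, 5 changed sign, and none of these 5 was called in the report. Among them, the exonic RNA ratios of COR47 and KIN1 with herboxidiene, both near 0, went from -0.038 and -0.017 to 0.00064 and 0.021 when scaled to the median gene.

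The number of effector genes called for 3'PI in xrn3 went from 1 to 0 at a threshold of 0.01 and when a 1.5-fold change was asked for as well, where all genes called went from 2646 to 1537 and 1463. With herboxidiene it went from 1 to 0 with a 1.5-fold change, and also with peak windows within 25 bp, which leaves KIN2 out. In DMSO against untreated Col-0 it went from 1 to 0 at a threshold of 0.01, and with windows within 25 bp all genes called went from 5696 to 3683. For gene body levels, the deposited TPM gave 1 effector gene in place of 2 in xrn3, with 516 of all genes in place of 895, and 944 of all genes in place of 1831 with herboxidiene. A minimum of 20 gene body reads gave 1115 there. At a fold of 1.5 the counts over all genes were 2641 in xrn3, 4591 with herboxidiene and 8492 in DMSO. For exonic RNA, a fold of 1.5 called 2 effector genes and 1807 of all genes with herboxidiene, and 6 effector genes and 1593 of all genes in xrn3. For introns in xrn3, all introns called went from 20557 to 12164 at a threshold of 0.01, 6612 at the 5' splice site alone and 6762 at the 3' splice site alone, and for genes from 7782 to 3856 with a 1.5-fold change as well.

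The other sign changes were in xrn3, at 0.89 for RD29A intron 1 and 0.087 for RD29B as a gene at the 5' splice site alone, and -0.26 for RD29B intron 2 at the 3' splice site alone. The cause was not tested. Depth limits RD22 in herboxidiene (9 peak reads) and all introns of RD29B.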
